A study of Homo sapiens with 4 samples.

Results

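The 10 genes described here are feedback targets of the Wnt/beta-catenin pathway, the TCF/LEF factors at its transcriptional end and AXIN1, the widely expressed relative of the target AXIN2. They were taken as the rows of the deposited count table that carry the symbols NKD1, AXIN1, AXIN2, RNF43, ZNRF3, TNFRSF19, LEF1, TCF7, TCF7L1 and TCF7L2. All 10 were found among 16839 gene rows. Messenger RNA was sequenced in D458, an established human medulloblastoma line, carrying either a short hairpin RNA against the histone H4 lysine 20 methyltransferase SETD8 (shSETD8, labelled as an 80% knockdown) or a non-targeting hairpin (shNull, labelled as wild type for SETD8). Each group had 2 libraries, described in the labels as RNA from separate clones, and the cells of both groups had gone through lentiviral transduction and 14 days of puromycin (1 µg/mL). The labels name several hairpins against SETD8 and do not say which clone carried which, so hairpin and clone cannot be told apart.

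In the Wnt pathway a secreted ligand binds a Frizzled receptor with an LRP co-receptor, which stops the AXIN-APC-GSK3 destruction complex from marking beta-catenin for degradation. Beta-catenin then enters the nucleus and turns TCF/LEF proteins, which sit on DNA with co-repressors in its absence, into activators. Several of the genes it switches on, among them AXIN2, NKD1, RNF43 and ZNRF3, encode inhibitors of the pathway, so their transcripts are widely used as a readout of pathway activity. One subgroup of medulloblastoma is driven by activating mutations of this pathway; D458 is not assigned to it and carries amplified MYC.

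Total counts per library were 52627366 and 49064974 in shSETD8 replicates 1 and 2, and 44527591 and 40908334 in shNull replicates 1 and 2. Levels are given as CPM, the count divided by the TMM-scaled library size, with exact Poisson 95% intervals in the plot that cover counting error only. SETD8 itself stood at 34.7% and 65.5% of the shNull mean in shSETD8 replicates 1 and 2, both short of the labelled knockdown and with replicate 2 the further from it. The shSETD8 libraries also lay further apart than the shNull libraries over the 14546 genes tested, with a median absolute log2 difference of 0.243 within shSETD8 and 0.123 within shNull. Of 8 markers of group 3 medulloblastoma 7 were in the table and were tested, 6 of them above 0 and 1, OTX2, below 0; their summed level was 5989 and 6013 CPM in shSETD8, against 6114 and 5809 CPM in shNull. OTX2 and CRX were present in every library, GABRA5 and MAB21L2 were higher in both shSETD8 libraries than in either shNull library, and NRL, at 22.3 and 170 CPM in shSETD8, lay on either side of 45.7 and 36.9 CPM in shNull. Of 6 markers of the WNT subgroup 4 were in the table, with a summed level of 33.2 and 8.89 CPM in shSETD8, against 39.9 and 22.6 CPM in shNull, most of it TNC. GAD1 was lower without overlap, at 1.91 and 2.29 CPM in shSETD8 and 3.26 and 2.96 CPM in shNull, DKK2 had 8 and 8 counts in shSETD8 and 1 and 1 in shNull, and LAD1 overlapped. Of 6 markers of the SHH subgroup 5 were in the table, with a summed level of 114 and 59.2 CPM in shSETD8, against 80.6 and 79.9 CPM in shNull. PDLIM3 (79.5 and 22.7 CPM in shSETD8, 42.2 and 42.8 CPM in shNull) split the shSETD8 libraries. GLI1 was lower without overlap, EYA1 overlapped, and HHIP and SFRP1 had at most 20 counts in a library. Of 5 fibroblast markers 4 were in the table, with a summed level of 31.2 and 43.6 CPM in shSETD8, against 49.3 and 45.5 CPM in shNull. COL1A1 (3.81 and 4.81 CPM in shSETD8, 1.88 and 1.97 CPM in shNull) and PDGFRB were higher without overlap, DCN (18 and 27.6 CPM in shSETD8, 41.4 and 35.2 CPM in shNull) was lower, and COL1A2 had at most 13 counts in a library. Of 5 blood and endothelial markers 2 were in the table. PTPRC had 39 and 31 counts in shSETD8 and 11 and 25 in shNull, and CD14 had at most 5 in a library. edgeR called 0 genes of these lists at an adjusted p under 0.05 (3 at an unadjusted p under 0.05: GABRA5, COL1A1 and DCN), and DESeq2 called 0. The part of these differences in the results that follow was not tested.

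NKD1, AXIN2, TNFRSF19, TCF7L1 and TCF7L2 were lower in both shSETD8 libraries than in either shNull library. By group means the difference was 2.08-fold for NKD1, 1.71-fold for TNFRSF19, 1.42-fold for AXIN2, 1.26-fold for TCF7L1 and 1.15-fold for TCF7L2. Of all tested genes 22.4% were lower in this way, and 45.3% were apart in either direction. In these bulk libraries less RNA per cell and fewer cells with the transcript cannot be told apart. AXIN1 overlapped between the groups. LEF1, TCF7 and ZNRF3 each had 1 shSETD8 library above and 1 below both shNull libraries, with replicate 1 the higher in LEF1 and ZNRF3 and the lower in TCF7. At an adjusted p under 0.05 the quasi-likelihood test of edgeR called 0 of the 9 genes that could be tested (3 at an unadjusted p under 0.05), where it called 0% of all genes tested. DESeq2 called NKD1 and TNFRSF19, both lower in shSETD8; over all genes it called 1.94% in either direction, 1.02% as lower and 0.928% as higher.

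NKD1 encodes a cytoplasmic protein that binds Dishevelled and dampens Wnt signalling. It was at 4.18 and 4.42 CPM in shSETD8 replicates 1 and 2, against 8.92 and 8.95 CPM in shNull replicates 1 and 2. The replicates of each group were nearly alike and the groups did not overlap; 80.4% of tested genes had a wider gap between the shSETD8 libraries. The group means were 4.30 ± 0.175 CPM in shSETD8 and 8.94 ± 0.0163 CPM in shNull (SD, n = 2 each). Its log2 fold change was -1.05 ± 0.19 (SE). Adjusted p was 0.352 by the quasi-likelihood test, 0.00392 by DESeq2, 0.0299 by the likelihood ratio test of edgeR (which called 1.7% of genes) and 0.354 by limma-voom. By edgeR's unadjusted p (0.00223) NKD1 ranked 91 among the 14546 genes tested. With each library left out in turn its log2 fold change stayed between -1.10 and -1.02. DESeq2 still called NKD1 when shSETD8 replicate 1 or 2 was left out (adjusted p = 0.0215 and 0.00582, with 5.3% and 11.7% of all genes called), and did not when shNull replicate 1 or 2 was (adjusted p = 1 in both, with 0.119% and 0.395% called).

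AXIN2 encodes an inducible scaffold of the destruction complex, and AXIN1 its widely expressed relative that is not known as a Wnt target. AXIN2 was at 6.37 and 8.17 CPM in the shSETD8 clones, against 10.4 and 10.3 CPM in shNull. Both shSETD8 libraries were below both shNull libraries, with replicate 1 the lower, at 61.5% and 78.9% of the shNull mean for replicates 1 and 2. The log2 fold change of AXIN2 was -0.51 ± 0.20 (SE), with an edgeR adjusted p of 0.458 and a DESeq2 adjusted p of 0.449. Leaving out shSETD8 replicate 2 gave -0.70 (edgeR adjusted p = 0.0184, with 17.2% of all genes called), and leaving out replicate 1 gave -0.34 (edgeR adjusted p = 0.213, with 9.55% called).

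AXIN1 was at 60.2 and 51.1 CPM in the shSETD8 clones, against 40.9 and 51.1 CPM in shNull. The groups met at 51.1 CPM, and each held 1 library apart from that value, the shSETD8 one above it and the shNull one below it. Its log2 fold change was 0.27 ± 0.16 (SE; edgeR adjusted p = 0.552), ranging from 0.12 to 0.44 with each library left out. Within each library the ratio of AXIN2 to AXIN1 counts, which needs no scaling between libraries, was 0.106 and 0.160 in shSETD8, against 0.254 and 0.202 in shNull.

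RNF43 and ZNRF3 encode related transmembrane ubiquitin ligases that remove Frizzled receptors from the cell surface and are themselves held in check by R-spondins. RNF43 was close to silent, with 0 and 0 counts in shSETD8 and 2 and 1 counts in shNull. A count of 0 allows up to 0.0572 and 0.0614 CPM in shSETD8 replicates 1 and 2 (3 counts), so no difference was detectable at this depth; RNF43 did not pass the filter on low counts and was not tested. ZNRF3 was at 46.3 and 36.5 CPM in the shSETD8 clones, against 41.1 and 45.5 CPM in shNull. The shSETD8 libraries lay on either side of the shNull pair. The log2 fold change of ZNRF3 was -0.06 ± 0.15 (SE; edgeR adjusted p = 0.900), and it turned positive, at 0.10, without shSETD8 replicate 2 and, at 0.0079, without shNull replicate 2.

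TNFRSF19, also called TROY, encodes a receptor of the tumour necrosis factor family that is reported as a beta-catenin target in several cell types. It was at 6.43 and 7.68 CPM in the shSETD8 clones, against 11.9 and 12.2 CPM in shNull. No shSETD8 library reached the shNull range, and replicates 1 and 2 held 53.4% and 63.8% of the shNull mean. The group means were 7.05 ± 0.886 CPM in shSETD8 and 12.04 ± 0.247 CPM in shNull (SD, n = 2 each). The log2 fold change of TNFRSF19 was -0.77 ± 0.18 (SE), and adjusted p was 0.372 by the quasi-likelihood test and 0.0478 by DESeq2. The DESeq2 call ended, with an adjusted p of 0.0568, when DESeq2 was run on the genes that passed the low-count filter of edgeR, where 1.92% of genes were called. It ended also without shSETD8 replicate 1 (DESeq2 adjusted p = 0.138) and without either shNull library (DESeq2 adjusted p = 1), and held without shSETD8 replicate 2 (0.00947). The edgeR estimate was -0.65 without shSETD8 replicate 1 and -0.91 without shSETD8 replicate 2.

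The RefSeq table lists a pair of start windows for TNFRSF19, shown because TNFRSF19 is the DESeq2 call whose promoter the table holds. Each spans 250 bases before to 50 bases after a gene start on the plus strand of GRCh38.p14, at chr13:23570162-23570461 and chr13:23579110-23579409. Capitals mark the TCF/LEF core motif CTTTG or its reverse complement CAAAG, searched on both strands.
TNFRSF19 window 1: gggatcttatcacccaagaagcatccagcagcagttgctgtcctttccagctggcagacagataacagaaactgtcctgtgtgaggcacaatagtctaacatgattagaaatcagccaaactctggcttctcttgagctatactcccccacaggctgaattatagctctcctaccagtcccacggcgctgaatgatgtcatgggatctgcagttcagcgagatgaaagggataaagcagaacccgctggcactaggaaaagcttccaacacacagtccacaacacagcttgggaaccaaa
TNFRSF19 window 2: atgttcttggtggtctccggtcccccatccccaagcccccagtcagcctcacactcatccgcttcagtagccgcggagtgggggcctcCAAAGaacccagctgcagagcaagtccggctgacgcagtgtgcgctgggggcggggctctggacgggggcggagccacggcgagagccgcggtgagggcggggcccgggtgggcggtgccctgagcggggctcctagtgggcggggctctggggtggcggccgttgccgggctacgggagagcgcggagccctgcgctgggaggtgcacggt
The first window held no match and the second held 1, at 162 bases before the start. Among all 35116 RefSeq windows, 47.5% held the core, so 1 match is an ordinary count. The longer forms CTTTGAT and CTTTGAA, found in 2.62% and 4.43% of all windows on either strand, were in 0 of the 12 windows of the 7 genes the table covers; NKD1, AXIN2 and ZNRF3 are not among them.

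**Figure D1:**
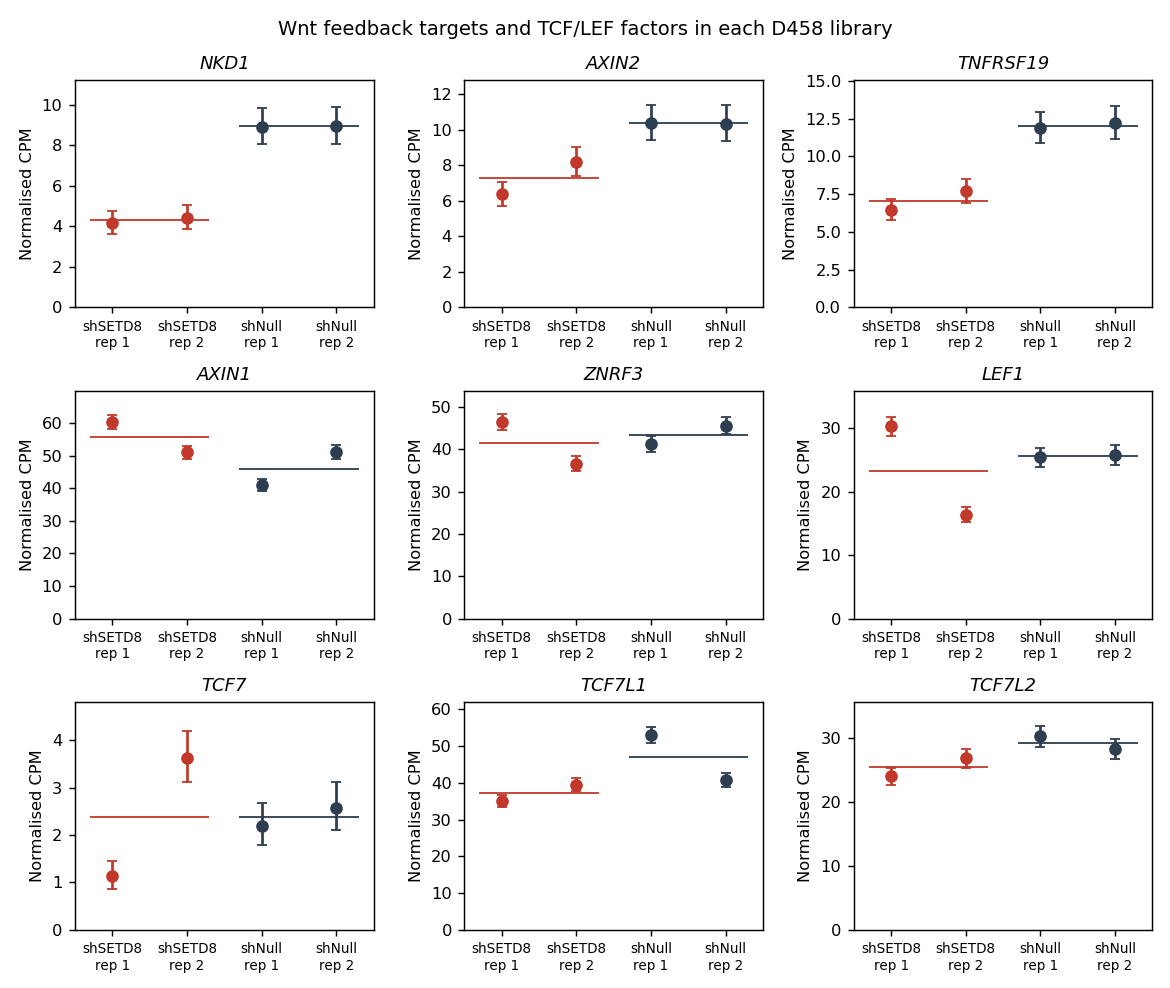
Normalised CPM (y axis, from 0) of 9 genes in each library (x axis), shSETD8 in red and shNull in dark blue; points carry exact Poisson 95% counting intervals and lines mark group means. NKD1, AXIN2, TNFRSF19, TCF7L1 and TCF7L2 lie lower in both shSETD8 libraries. LEF1 (30.2 and 16.4 CPM in shSETD8) and TCF7 (1.13 and 3.62 CPM in shSETD8) split the shSETD8 libraries in opposite directions.

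The 4 TCF/LEF genes encode high-mobility-group proteins that bind the same core sequence and differ in what they do there. LEF1 and TCF7 mostly activate and are themselves Wnt targets in many cells, TCF7L1 acts mainly as a repressor, and TCF7L2 can do either. The repressor TCF7L1 was at 35.1 and 39.5 CPM in the shSETD8 clones, against 53.1 and 40.7 CPM in shNull. Both shSETD8 libraries were lower than both shNull libraries, though shSETD8 replicate 2 and shNull replicate 2 lay close together. Its log2 fold change was -0.33 ± 0.16 (SE; edgeR adjusted p = 0.505), and without shNull replicate 1 it was -0.13.

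TCF7L2 was at 24.0 and 26.8 CPM in the shSETD8 clones, against 30.2 and 28.2 CPM in shNull. The groups did not overlap, with a gap between the nearest libraries smaller than the spread inside either group. Its log2 fold change was -0.20 ± 0.12 (SE; edgeR adjusted p = 0.569). The ratio of TCF7L1 to TCF7L2 counts was 1.46 and 1.48 in shSETD8, against 1.76 and 1.44 in shNull, and so overlapped.

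LEF1 was at 30.2 and 16.4 CPM in the shSETD8 clones, against 25.4 and 25.7 CPM in shNull. Replicate 1 of shSETD8 lay above and replicate 2 below the tight shNull pair, and 11.8% of tested genes had a wider gap between the shSETD8 libraries. The log2 fold change of LEF1 was -0.13 ± 0.29 (SE; edgeR adjusted p = 0.892). The value became -0.64 with shSETD8 replicate 1 left out and 0.24 with replicate 2 left out.

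TCF7 was the lowest of the family, at 1.13 and 3.62 CPM in the shSETD8 clones, against 2.20 and 2.57 CPM in shNull. Its counts were 59 and 177 in shSETD8 and 97 and 107 in shNull. Here replicate 1 of shSETD8 was the low one and replicate 2 the high one, a 3.22-fold gap exceeded by 3.40% of tested genes. The log2 fold change of TCF7 was -0.0080 ± 0.57 (SE, edgeR adjusted p = 0.998). It was -1.08 without shSETD8 replicate 2 and 0.60 without shSETD8 replicate 1. The ratio of LEF1 to TCF7 counts was thus 26.9 and 4.52 in shSETD8, on either side of 11.5 and 10.0 in shNull. SETD8 mRNA was also lower in shSETD8 replicate 1 than in replicate 2, at 14.0 against 26.4 CPM, and its part in this split was not tested.

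The start windows of LEF1 and TCF7 are shown because these genes had the widest log2 gaps between the shSETD8 libraries among the 9 tested. They span the same distances around the RefSeq starts of GRCh38.p14, at chr4:108166252-108166551 on the minus strand for LEF1 and at chr5:134115363-134115662 and chr5:134123368-134123667 on the plus strand for TCF7. TCF7 is known to make a full-length protein and, from a downstream start, a form that lacks the beta-catenin binding region and acts as a repressor; a count per gene does not separate them.
LEF1 window 1: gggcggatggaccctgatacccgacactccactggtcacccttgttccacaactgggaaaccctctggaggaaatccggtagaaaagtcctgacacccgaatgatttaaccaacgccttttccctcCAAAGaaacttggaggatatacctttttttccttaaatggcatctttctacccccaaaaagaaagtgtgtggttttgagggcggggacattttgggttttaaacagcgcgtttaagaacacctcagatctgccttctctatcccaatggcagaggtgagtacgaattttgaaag
TCF7 window 1: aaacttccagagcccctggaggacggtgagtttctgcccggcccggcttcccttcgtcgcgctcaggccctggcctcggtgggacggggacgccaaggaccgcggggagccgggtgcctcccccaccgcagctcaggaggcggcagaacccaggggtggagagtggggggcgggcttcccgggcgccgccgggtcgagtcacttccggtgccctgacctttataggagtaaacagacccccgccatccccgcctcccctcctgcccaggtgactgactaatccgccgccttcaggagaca
TCF7 window 2: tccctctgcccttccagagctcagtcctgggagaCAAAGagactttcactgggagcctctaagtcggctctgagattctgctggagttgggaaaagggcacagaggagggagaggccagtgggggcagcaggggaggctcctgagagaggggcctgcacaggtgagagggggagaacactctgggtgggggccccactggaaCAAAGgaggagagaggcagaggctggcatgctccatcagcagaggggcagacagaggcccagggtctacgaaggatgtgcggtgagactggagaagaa
Capitals again mark CTTTG or CAAAG. LEF1 held 1 match, the first TCF7 window 0 and the second TCF7 window 2, against the 47.5% of all windows with at least 1.

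To compare levels between these genes, CPM was divided by the summed exon length of each gene in the GENCODE v29 basic annotation, which may not be the gene models the authors counted on. TCF7L1 was the most abundant TCF/LEF gene in every library, at 11.8 and 13.3 CPM per kilobase in shSETD8, against 17.9 and 13.7 CPM per kilobase in shNull. It made up 47.6% and 54.8% of the family's level per kilobase in shSETD8 and 56.9% and 50.8% in shNull. TCF7L2 and LEF1 came next and changed places between libraries: LEF1 held 29% and 16.1% in shSETD8 and 19.2% and 22.7% in shNull, and TCF7L2 held 22.3% and 25.5% in shSETD8 and 22.2% and 24.1% in shNull. With the longest transcript as the length, LEF1 in shNull replicate 2 took 25.8% and TCF7L2 23.7%, which turns their order there. TCF7 came last in every library, at 1.1% and 3.62% in shSETD8 and 1.7% and 2.31% in shNull. The family's summed level per kilobase was 24.8 and 24.3 in shSETD8, against 31.4 and 27.0 in shNull.

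**Figure D2:**
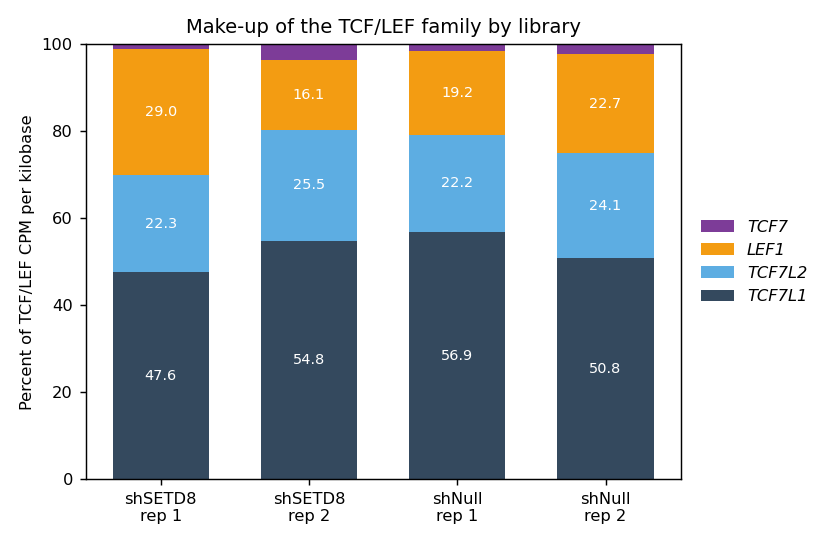
Share of the summed TCF/LEF level (percent of CPM per kilobase, y axis from 0) taken by each of the 4 genes in each library (x axis). TCF7L1 takes the largest share in all 4 libraries, and the LEF1 share is highest in shSETD8 replicate 1, at 29%, and lowest in shSETD8 replicate 2, at 16.1%.

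Among the other genes per kilobase, AXIN1 stood at 16.5 and 14.0 CPM in shSETD8 and 11.2 and 14.0 CPM in shNull, overlapping TCF7L1. ZNRF3 followed at 6.65 and 5.24 CPM per kilobase in shSETD8 and 5.90 and 6.53 in shNull, overlapping TCF7L2 and LEF1. AXIN2 stood lower, with 1.38 and 1.76 CPM per kilobase in shSETD8 and 2.24 and 2.23 in shNull. TNFRSF19 was close to it, with 1.33 and 1.59 CPM per kilobase in shSETD8 and 2.45 and 2.53 in shNull. NKD1 is not placed in this order, because its annotated length of 17.1 kilobases is far above that of the other genes and its level per kilobase depends on the gene model.

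Over the 9 genes tested, the median log2 fold change was -0.20, against a median of 0.0068 over all genes tested. Of the 9, 8 lay below 0, where 48.8% of all genes did. These include LEF1 (-0.13), TCF7 (-0.0080) and ZNRF3 (-0.06), whose shSETD8 libraries lay on either side of the shNull pair. The signs of LEF1, TCF7 and ZNRF3 turned with a library left out. In 5 of the 9 (NKD1, TNFRSF19, AXIN2, TCF7L1 and TCF7L2) both shSETD8 libraries were lower than both shNull libraries. That held for 22.4% of all tested genes (45.3% were apart in either direction), and 0 of the 9 had both libraries higher, where 22.9% of all tested genes did. At an unadjusted edgeR p under 0.05, 3 of the 9 were lower and 0 higher, against 5.16% and 5.65% of all tested genes. The genes were chosen with earlier results of these data known, so these shares describe the list and test nothing.

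**Figure D3:**
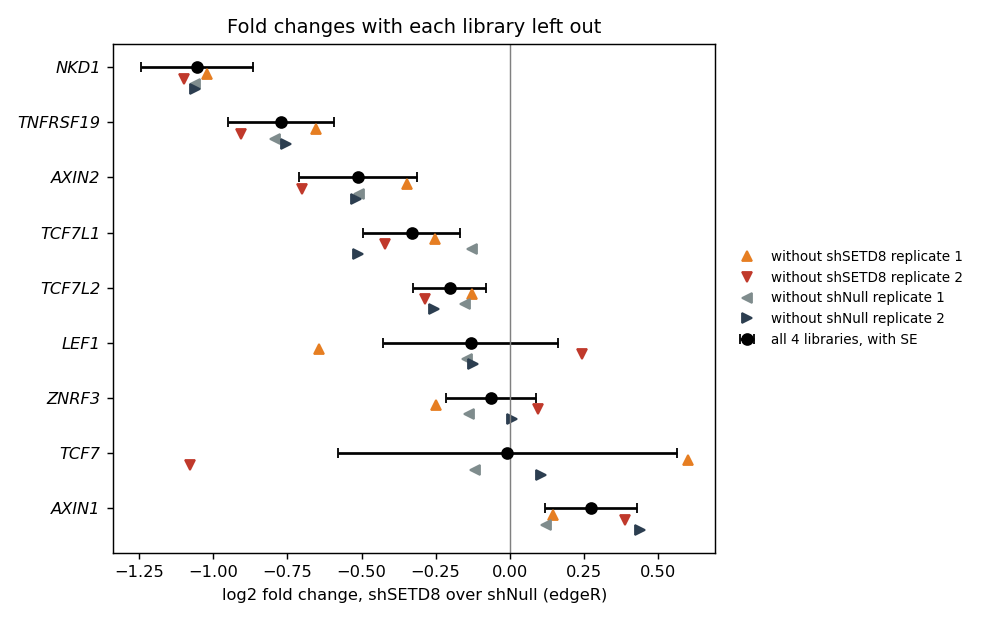
Log2 fold change of shSETD8 over shNull (x axis) for 9 genes (y axis), from edgeR on all 4 libraries (circles, with SE) and with each library left out (triangles). NKD1, TNFRSF19 and AXIN2 stay below 0 in each case, while LEF1 moves between -0.64 and 0.24 and TCF7 between -1.08 and 0.60.

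Other genes of the pathway, taken from lists by role, gave 94 genes in the table, of which 82 were tested. edgeR's quasi-likelihood test called 0 of the 82. At an unadjusted p under 0.05 it gave 3 higher and 5 lower, 9.76% of the 82, beside 10.8% of all genes tested. DESeq2 called 1 higher, the ligand WNT10B, and 1 lower, the membrane inhibitor APCDD1. Over all genes it called 1.94%, 0.928% as higher and 1.02% as lower. The median log2 fold change of the 82 was -0.10, with 55 below 0 and 27 above. Over all tested genes 48.8% lay below 0, the share to set beside the counts of each list that follows.

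Among ligands and secretion genes 10 were tested, 4 of them above 0. WNT10B, a ligand of the beta-catenin branch, was at 9.94 and 6.59 CPM in the shSETD8 clones, against 2.72 and 3.82 CPM in shNull. Its libraries did not overlap, and its log2 fold change was 1.34 ± 0.31 (SE; edgeR adjusted p = 0.372, DESeq2 adjusted p = 0.018). The DESeq2 call of WNT10B held without shSETD8 replicate 2 (adjusted p = 0.000293) and ended without shSETD8 replicate 1 (0.135) and without shNull replicate 1 or 2 (1 and 0.435). WNT5A, a ligand known mostly for beta-catenin-independent signalling, was at 2.19 and 7.41 CPM in the shSETD8 clones, against 12.5 and 10.3 CPM in shNull (log2 fold change -1.25 ± 0.56, edgeR adjusted p = 0.489). The value for WNT5A was -2.38 without shSETD8 replicate 2 and -0.62 without shSETD8 replicate 1. WLS, the carrier that takes Wnt proteins to the cell surface, was the most counted of this list, at 78.6 and 101 CPM in shSETD8 and 79.0 and 79.1 CPM in shNull.

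Receptor genes were mixed. Of 12 Frizzled and LRP genes tested, 8 lay below 0 and the median was -0.14 (log2). The co-receptor LRP6 was at 78.7 and 87.9 CPM in the shSETD8 clones, against 99.4 and 105 CPM in shNull, without overlap (log2 fold change -0.30 ± 0.10, edgeR adjusted p = 0.440). FZD5 was at 74.2 and 73.2 CPM in the shSETD8 clones, against 51.3 and 67.8 CPM in shNull. Of 4 R-spondin and LGR genes tested, 3 lay above 0. LGR4 was at 38.8 and 55.3 CPM in shSETD8 and 44.7 and 45.6 CPM in shNull. LGR6 had 47 and 52 counts in shSETD8 and 8 and 12 in shNull (log2 fold change 2.05 ± 0.42). Its adjusted p was 0.362 by edgeR's quasi-likelihood test, 0.222 by DESeq2 and 0.0111 by the likelihood ratio test, which called 1.7% of all genes. LGR5 had 2 and 8 counts in shSETD8 and 17 and 12 in shNull.

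Of 6 secreted and membrane inhibitors tested, 4 lay below 0. Among them was APCDD1, a membrane protein that binds Wnt ligands and is itself a reported target. It was at 14.8 and 25.9 CPM in the shSETD8 clones, against 51.3 and 33.4 CPM in shNull. No library crossed over, but the spread was wide in both groups, and its log2 fold change was -1.06 ± 0.33 (SE; edgeR adjusted p = 0.424, DESeq2 adjusted p = 0.0485, and 0.0571 on the filtered genes). The DESeq2 call of APCDD1 held without shSETD8 replicate 2 (adjusted p = 0.0363) and ended without shSETD8 replicate 1 (0.609) and without shNull replicate 1 or 2 (1 and 0.0894). KREMEN2, a receptor for Dickkopf proteins, was at 15.0 and 15.0 CPM in the shSETD8 clones, against 9.74 and 10.2 CPM in shNull (log2 fold change 0.59 ± 0.15, edgeR adjusted p = 0.383). Of the other reported targets, SP5 had 10 and 22 counts in shSETD8 and 36 and 30 in shNull, and CD44 had 0 and 6 counts in shSETD8 and 31 and 15 in shNull. In the other direction, CCND1 had 18 and 8 counts in shSETD8 and 2 and 1 in shNull, and did not pass the low-count filter. PRDM1 had 12 and 112 counts in shSETD8 and 20 and 15 in shNull, and overlapped. MYC, a Wnt target in other tissues and amplified in this line, was at 2953 and 2620 CPM in shSETD8 and 2597 and 2652 CPM in shNull. In all, 8 of the 11 tested targets lay below 0 and 3 (PRDM1, ZNF703 and MYC) above 0, where 48.8% of all tested genes lay below 0. Without overlap 4 were lower and 0 higher, where 22.4% and 22.9% of all tested genes were. The other 7 overlapped, among them TBX3 and NOTUM. NOTUM was at 16.3 and 5.73 CPM in shSETD8 and 13.6 and 10.6 CPM in shNull. Of the 11, 4 (APCDD1, NOTUM, KREMEN1 and LGR5) also count in another list.

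Of 14 destruction complex and turnover genes 12 lay below 0; their median log2 fold change was -0.11, with a range from -0.33 to 0.16; the kinase CSNK1E was at 144 and 143 CPM in the shSETD8 clones, against 183 and 172 CPM in shNull. Of 21 genes for beta-catenin, its co-activators and co-repressors 16 lay below 0, with a median of -0.11. Among all tested genes 48.8% lay below 0. The acetyltransferase EP300, a co-activator, was at 135 and 119 CPM in the shSETD8 clones, against 164 and 179 CPM in shNull (log2 fold change -0.43 ± 0.11, edgeR adjusted p = 0.383). The Dishevelled list split evenly, 4 of 8 on each side of 0 in a range from -0.68 to 0.45, with DVL1 and DVL2 at 0.20 ± 0.10 and 0.21 ± 0.10 as log2 fold change ± SE.

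**Figure D4:**
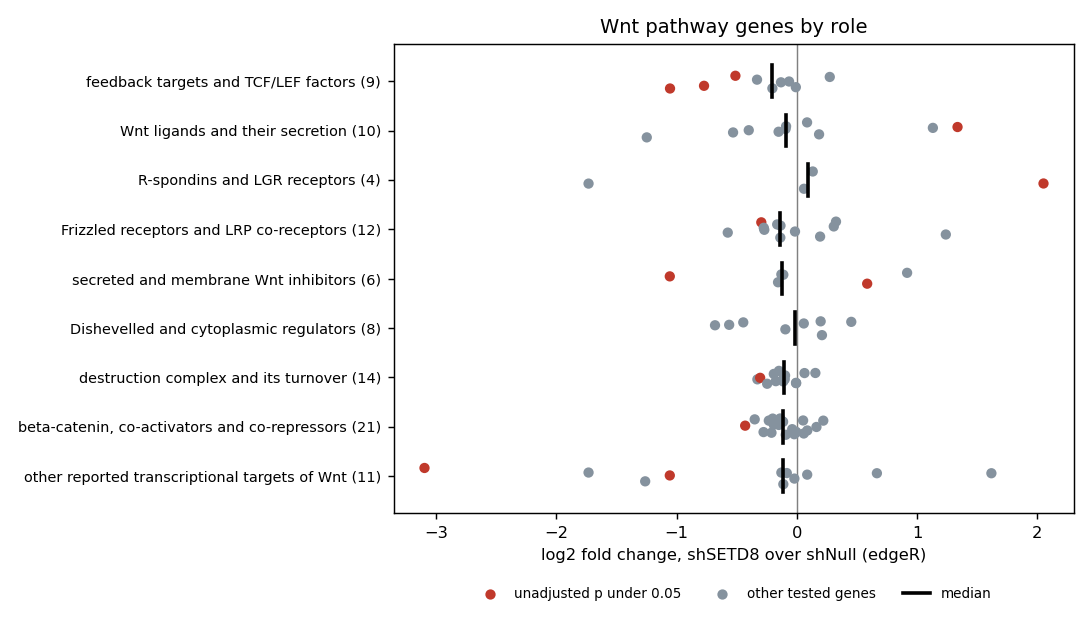
Log2 fold change of shSETD8 over shNull (x axis, edgeR) for each tested gene of the lists by role (y axis, number tested in brackets), red where the unadjusted p was under 0.05, with list medians as black bars. The feedback targets and TCF/LEF factors have a median of -0.20, and the medians of the other lists lie between -0.14 and 0.10.

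Genes with the pattern most like NKD1 were sought by the distance between log2 CPM centred over the 4 libraries, among 11603 genes with a mean raw count of at least 100. The nearest were ZNF674-AS1 (distance 0.105), C10orf25 (0.128) and the SRC family kinase FYN (0.130), and 12 genes lay within 0.2. FYN was at 51.9 and 54.5 CPM in the shSETD8 clones, against 101 and 100.4 CPM in shNull, and was a DESeq2 call (adjusted p = 2.32e-10) but not an edgeR call (adjusted p = 0.289); the DESeq2 call of FYN ended without shNull replicate 1 or 2 (adjusted p = 0.272 and 0.09). For AXIN2 the nearest were POU6F1 (0.0358), AASS (0.0548) and SLC7A11 (0.0582), with 157 genes within 0.2. With 4 libraries such likeness is easily met and describes these libraries only.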

How the data were processed

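Poly(A) RNA libraries were made with a strand-specific kit and sequenced as single reads of 50 bases, per the labels. The authors deposited raw whole-number counts per gene. STAR 2.4.0.1, Trimmomatic 0.36, DESeq 1.32.0 and FastQC 0.10.1 were used with build hg19, per the submitters' processing notes. The sources used here do not say how reads were counted or whether strand was used. Reads from exons that overlap another gene in GENCODE v29 cannot be assigned with certainty: on the opposite strand NKD1 with AC007608.1 (67 bases), LEF1 with LEF1-AS1 (279), TCF7L2 with AL158212.2 (300) and RNF43 with TSPOAP1-AS1 (1220), and on the same strand, where strand cannot separate them, AXIN2 with AC004805.1 (1316) and RNF43 with AC004687.2 (4313) and SUPT4H1 (143). Another 2 count columns matched no sample and were not used.

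Groups follow the treatment label; replicate numbers follow record order and pair nothing. Replicates were compared before averaging: chi-square per gene was 86.7 between the shSETD8 and 19.6 between the shNull libraries, above sampling noise. The test was edgeR 4.0.16 (R 4.3.3), quasi-likelihood, TMM, filterByExpr (14546 genes kept), with Benjamini-Hochberg adjustment over all tested genes at 0.05. SE was taken from the F statistic (absolute log2 fold change divided by its square root). P-values measure the spread between 2 clones a group; an exact permutation of 2 against 2 cannot go below 0.333. Alternatives were DESeq2 1.42.0 (on all rows), limma-voom (limma 3.58.1), the edgeR likelihood ratio test, other filters and scaling, and each library left out; DESeq2 on filtered genes or with a library left out was added after seeing the data. The steps were tested on simulated data. Promoters come from RefSeq (GRCh38.p14); 7 of the 10 genes matched. All members and lists were chosen with earlier results of these data known. Named genes were all 10 members, SETD8, per other list the 3 with the lowest p and the 1 with the highest CPM, and the 3 nearest in pattern to NKD1 and AXIN2. Not each is described. CCND1, PRDM1 and ZNF703 were named outside this rule, for their direction, and NOTUM and TBX3 for their overlap.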

Additional observations from a re-analysis of the deposited data

How the results depend on the processing

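Over all genes, edgeR's quasi-likelihood test called 0 at an adjusted p under 0.05 (1573 at an unadjusted p under 0.05), also with DESeq2 size factors, with no filter and with a mean of at least 100 counts; limma-voom called 0 as well. DESeq2 called 283 genes, 2 of them among the 10 described here, the edgeR likelihood ratio test 247 with 1, and DESeq2 on the edgeR-filtered genes 274 with 1. With a library left out edgeR called from 0 to 2550 genes and from 0 to 4 of the 10: 1418 and 3 without shSETD8 replicate 1, 2550 and 4 without shSETD8 replicate 2, and 0 when either shNull library was dropped. DESeq2 gave 754 and 1548 genes without shSETD8 replicate 1 or 2, with 2 of the 10 each, and 20 and 51 without shNull replicate 1 or 2, with 0. Such fits take the spread of a lone library from the opposite group. The edgeR calls with an shSETD8 library left out included LEF1 and TCF7, whose fold changes turned between these fits.

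NKD1, TNFRSF19, AXIN2, TCF7L1, TCF7L2 and AXIN1 kept their direction under all 15 alternatives. With a library left out, log2 fold changes turned for TCF7 (-1.08 to 0.601 in edgeR, -1.08 to 0.600 in DESeq2), LEF1 (-0.644 to 0.242, -0.645 to 0.247) and ZNRF3 (-0.249 to 0.096, -0.25 to 0.1); without shNull replicate 2 alone, DESeq2 gave 0.112 for TCF7 and 0.0122 for ZNRF3. Among other Wnt genes the edgeR ranges were -0.0939 to 0.0562 for LRP5, -0.00561 to 0.17 for MYC, -0.00768 to 0.352 for WLS and -0.218 to 0.289 for LGR4. DESeq2 turned LRP5 (0.0551 without shSETD8 replicate 1, 0.00193 without shNull replicate 2), MYC (-0.0067 without shSETD8 replicate 1) and WLS and LGR4 (-0.00358 and -0.213 without shSETD8 replicate 2). The cause was not tested. No paired analysis was possible because the labels give no replicate numbers. RNF43 is limited by depth, with at most 2 counts in a library.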
